A study of Homo sapiens with 6 samples.

Results

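These results describe 91 genes that were well expressed in untreated SUM159 breast cancer cells and lower in cells exposed to decitabine, out of 14884 genes with a named feature on the array. A gene was taken where the mean of its 3 untreated arrays was at least 5.5 on the deposited scale, read here as log2. Decitabine minus untreated also had to be at most -0.9, a 1.87-fold difference, in each of the 3 same-numbered pairs of arrays. Of the 3856 genes (25.9%) that reached the level of 5.5, 127 met both conditions, which is 3.29% of them. The rule then left out 36 of the 127 by name: transfer RNA synthetases, symbols starting with SNHG, LINC, MIR, ZNF, KRT or DUSP, and a set of named genes, many of them of the integrated stress response and amino acid synthesis. The 91 that remained were all protein-coding. The members were thus chosen by their untreated level and by their difference between the groups, so these values are given as a description, with no test.

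SUM159 is an established human breast carcinoma line of the basal, mesenchymal-like, triple-negative type. RNA came from 3 samples of cells given 1 µM decitabine for 72 h, with fresh medium each day, and from 3 samples of untreated cells (labelled NT) kept for the same 72 h. Both groups grew in the same medium, which held serum, insulin and hydrocortisone, and the labels do not say whether the untreated cells received the drug's solvent. Sample titles of the untreated group also read 1 µM, taken here as part of the name only, and the protocol writes the drug as 5'-deoxy-azacytidine where the design writes decitabine. Everything rests on a single line, and nothing in the labels says that samples of a group were separate cultures.

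Decitabine, an analogue of deoxycytidine, enters DNA during replication, traps the DNA methyltransferases and so leaves newly made DNA with less methylation. It is best known for raising genes that methylation had kept silent. The genes described here lie in the other direction. They include inflammatory chemokines, interleukin receptors, a ligand and inhibitors of epidermal growth factor (EGF) signalling, matrix proteins, and enzymes of mitochondrial folate metabolism.

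The arrays and the label of the cells were checked first. Medians over all 48226 features were 3.03 and 2.98 in the untreated and decitabine arrays of replicate 1, and 2.29 to 2.42 in the other 4 arrays. Of 7 measured markers of the SUM159 type, 6 had untreated means of at least 5.5, among them SNAI2 at 10.42, VIM at 9.36 and the member EGFR at 8.22. The hormone receptor genes ESR1 and PGR were low at 2.03 and 1.91, as were FOXA1 at 2.75 and EPCAM at 2.94, while the luminal genes GATA3, KRT18 and XBP1 stood at 5.65, 7.72 and 8.69. Of 15 measured markers of leukocytes, endothelium and fibroblasts, CD68 was at 6.74 and the other 14 at or below 3.89. None of the 15 passed limma's test across all genes (adjusted p under 0.05). At an unadjusted p under 0.05, 2 were higher, a count given without the share over all genes. Of the luminal markers, XBP1 changed by -1.57 (limma adjusted p = 0.00576) and the other 8 did not pass. XBP1 met both limits of the rule and was left out of the members by name. With the replicate number as a block, EPCAM, KRT19 and the leukocyte marker CD14, which differed by 1.10, 0.63 and 0.72, passed as well (limma adjusted p = 0.00829, 0.0380 and 0.0247), and their part in the members' values was not tested.

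Promoters of member genes that lie near each other in the genome or that carry a searched motif are printed so that the letters stand beside the array values that follow. Each is the 300 bases from 250 before to 50 after an annotated start in RefSeq (GRCh38.p14), written 5′ to 3′ on the gene's own strand. The inflammatory pair CXCL8 (chr4:73740319-73740618, plus strand) and CXCL2 (chr4:74099146-74099445, minus strand) are shown with the NF-kB motif GGNNTTTCC in capitals. IL18R1 (chr2:102355546-102355845, plus strand) is shown with the same motif.
CXCL8: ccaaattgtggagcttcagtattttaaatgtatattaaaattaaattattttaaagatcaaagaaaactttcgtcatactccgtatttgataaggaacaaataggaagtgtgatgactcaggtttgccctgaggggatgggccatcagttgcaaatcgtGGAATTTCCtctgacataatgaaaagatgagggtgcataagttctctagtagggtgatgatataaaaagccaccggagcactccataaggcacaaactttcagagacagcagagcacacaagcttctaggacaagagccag
CXCL2: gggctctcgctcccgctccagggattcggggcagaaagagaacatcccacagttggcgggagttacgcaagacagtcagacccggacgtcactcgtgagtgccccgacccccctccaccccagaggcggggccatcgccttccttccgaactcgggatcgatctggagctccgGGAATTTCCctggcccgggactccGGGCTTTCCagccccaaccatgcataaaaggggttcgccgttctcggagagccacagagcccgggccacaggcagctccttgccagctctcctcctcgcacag
IL18R1: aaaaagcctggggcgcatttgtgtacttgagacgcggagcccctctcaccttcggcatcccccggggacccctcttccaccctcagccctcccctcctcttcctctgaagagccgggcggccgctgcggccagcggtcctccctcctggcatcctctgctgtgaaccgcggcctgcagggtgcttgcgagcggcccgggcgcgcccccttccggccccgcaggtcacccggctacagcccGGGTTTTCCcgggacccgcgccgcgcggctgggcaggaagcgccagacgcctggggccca
The windows of CXCL8 and IL18R1 held the motif at a single place and that of CXCL2 at 2 places, and in CXCL8 it started 91 bases before the annotated start. IL1RL1 (chr2:102311313-102311612, plus strand), the direct neighbour of IL18R1, and EREG (chr4:74364895-74365194, plus strand), near CXCL2, are shown with the TATA box letters TATAAA in capitals. These began 29 and 32 bases before the start. IL18R1 and IL1RL1 each had 2 windows, and the window not printed held no match to the letters marked for that gene.
IL1RL1: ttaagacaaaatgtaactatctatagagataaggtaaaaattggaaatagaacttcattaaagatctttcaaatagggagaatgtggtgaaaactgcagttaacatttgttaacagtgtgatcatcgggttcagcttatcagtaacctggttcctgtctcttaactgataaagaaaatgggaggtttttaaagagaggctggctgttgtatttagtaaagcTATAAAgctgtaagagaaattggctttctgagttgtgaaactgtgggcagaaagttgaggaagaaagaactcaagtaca
EREG: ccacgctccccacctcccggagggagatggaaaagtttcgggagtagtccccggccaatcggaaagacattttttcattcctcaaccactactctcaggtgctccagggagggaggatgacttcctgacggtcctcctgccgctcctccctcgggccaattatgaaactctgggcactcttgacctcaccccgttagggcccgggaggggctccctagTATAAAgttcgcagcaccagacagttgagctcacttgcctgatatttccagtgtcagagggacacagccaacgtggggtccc
MTHFD1L (chr6:150866083-150866382, plus strand), an enzyme gene described with the other metabolic members, is shown with the composite ATF4 and C/EBP motif TGATGNAA in capitals. It began 25 bases after the start used for this window, 1 of 4 windows of the gene. Windows of nearby annotated starts overlap this one and hold the same site, so its place depends on the start chosen.
MTHFD1L: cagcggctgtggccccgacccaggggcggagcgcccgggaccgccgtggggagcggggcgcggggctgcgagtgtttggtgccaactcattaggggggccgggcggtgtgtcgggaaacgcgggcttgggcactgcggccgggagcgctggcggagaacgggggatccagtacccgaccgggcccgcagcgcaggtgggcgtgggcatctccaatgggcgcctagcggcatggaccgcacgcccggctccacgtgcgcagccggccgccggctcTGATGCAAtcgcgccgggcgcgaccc
The match of these letters is a description of the window and was not tested as a binding site.

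Levels of the 91 genes covered most of the upper range of the array. Their untreated means ran from 5.51 to 10.32 with a median of 7.28, and their decitabine means from 3.28 to 8.79 with a median of 5.69. After decitabine 51 of the 91 were still at 5.5 or above, and the lowest value of any member in any decitabine array was 2.89. The mean difference ran from -0.98 to -2.63 with a median of -1.38, or 2.61-fold lower, beside a median of -0.02 over all 14884 genes. By the mean of the 3 pairs, 90 genes were at least 2-fold lower and 12 at least 4-fold lower. In the opposite direction, 70 well-expressed genes were higher by 0.9 or more in each pair.

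**Figure D1:**
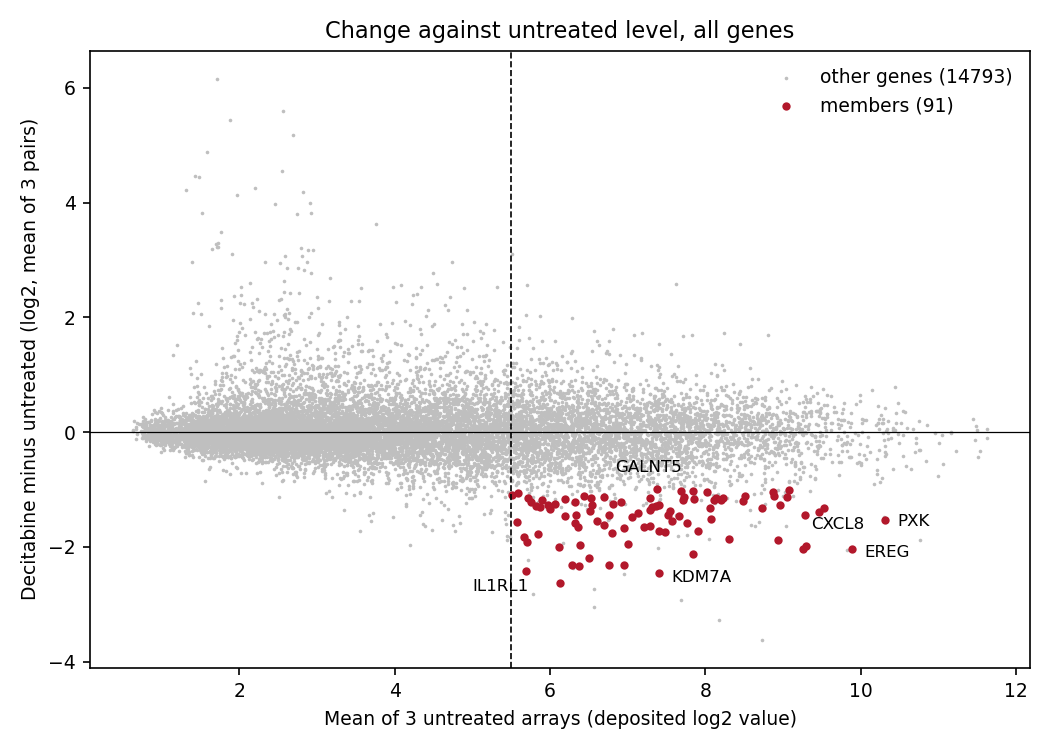
Mean difference between decitabine and untreated arrays (log2, vertical axis) against the mean of the 3 untreated arrays (log2, horizontal axis) for each of 14884 genes, with the 91 members in red and the level of 5.5 as a dashed line. Members lie between -0.98 and -2.63, and grey points among them are genes left out by name or by a smaller difference in at least 1 pair.

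The 3 decitabine values lay below all 3 untreated values for 90 of the 91 genes. That arrangement was seen for 8.74% of all genes and for 21.6% of well-expressed genes, and since the rule fixed the direction in each pair nothing is read from the members' count. CXCL2 was the exception, with its lowest untreated value, 5.58 in replicate 3, matched or passed by decitabine values of 5.64 and 5.58 in replicates 1 and 2. The limma fit across all genes called 71 of the 91 lower at an adjusted p under 0.05, where 1.02% of all genes were called lower, and all 91 with the replicate number as a block, where 5.37% were. These counts rest on the contrast that chose the members and are likewise only a description. Without untreated replicate 2 the fit called 16 members lower and without decitabine replicate 2 it called 18, where 0.222% and 0.235% of all genes were called lower. Without untreated or decitabine replicate 3 it called 28 and 25, where 0.356% and 0.316% of all genes were.

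Sizes differed between the pairs. The median difference of the 91 genes was -1.29 in pair 1, -1.40 in pair 2 and -1.51 in pair 3, where the median over all well-expressed genes was 0.06, -0.03 and -0.11. Pair 1 held the smallest difference for 59 members, and pair 3 the largest for 46. Pair 1 is also the pair whose arrays had the higher overall medians, and the part of that in the members' values was not tested. The 3 differences of a gene spanned 0.34 in the median, under 0.5 in 62 genes and over 1 in 8: IL1RL1, IL18R1, MDGA2, EPHA3, ANKFN1, FBXL13, KDM7A and CXCL8. They spanned the least for GALNT5, a glycosyltransferase that starts O-linked chains, at -0.99, -0.98 and -0.98, and for ANTXR2, a receptor for collagen and anthrax toxin, at -1.14, -1.12 and -1.11. ENPP2, SCMH1 and RPL22L1 followed, with spans of 0.06, 0.06 and 0.07.

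Genes close to the limits of the rule were spread over several functions. Just inside the limit on the difference were PEA15 and WDR41, each at -0.90 in pair 1, and IL1RL1, MCL1 and DIAPH2, each at -0.91 in pair 1. Just outside it were TFPI, SGPL1, TXNIP and TOM1L1, whose smallest difference was -0.89, and ERMARD at -0.88. Just above the level limit were FADS3 at 5.51, RPL22L1 at 5.57, SIRT5 at 5.59, EPHA3 at 5.67 and ANKFN1 at 5.69. Just below it, with differences past the limit in each pair, were CADM3 at 5.49, PMAIP1 at 5.48, PCK2 and ULBP1 at 5.45 and RHBDD1 at 5.43.

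Inflammatory signalling contributed 7 members, with a median difference of -1.88: the chemokines CXCL8 and CXCL2, the receptors IL1RL1, IL18R1 and IL20RB, and TNIP1 and TNIP3, which bind TNFAIP3 and restrain NF-kB. CXCL8 (Entrez Gene 3576), the neutrophil chemokine interleukin-8, was at 10.08, 9.46 and 8.37 in untreated replicates 1 to 3 and at 7.45, 7.65 and 6.86 in decitabine replicates 1 to 3. Every decitabine value lay under every untreated value, and the mean was 3.95-fold lower, from 9.30 ± 0.87 to 7.32 ± 0.41 (SD, n = 3 per group). CXCL2 (2920), a second chemokine for neutrophils, was at 7.23, 6.83 and 5.58 and then at 5.64, 5.58 and 4.59, so the untreated array of replicate 3 was about as low as 2 decitabine arrays. Its closely similar relative CXCL3, which is no member, had means of 5.23 untreated and 3.82 after decitabine, with pair differences of -2.18, -1.19 and -0.86. Its difference of -1.41 did not pass without a block (limma adjusted p = 0.501) and passed with it (adjusted p = 0.0222). How far features of such similar genes read each other's RNA was not tested.

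IL1RL1 (9173), the receptor for interleukin-33, had the largest mean difference of all members, at -2.63. Its untreated values were 4.42, 7.31 and 6.66 and its decitabine values 3.51, 4.10 and 2.90, so untreated replicate 1 lay more than 2 log2 units under the other untreated arrays and close to the decitabine values. The 3 pair differences were accordingly -0.91, -3.21 and -3.76. IL18R1 (8809), the chain of the interleukin-18 receptor that binds the ligand, behaved alike, with 5.57, 7.33 and 7.37 untreated and 4.36, 4.64 and 4.33 after decitabine. Its pair differences were -1.21, -2.69 and -3.04, again smallest where the untreated value was lowest.

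IL20RB (53833), a chain of receptors for cytokines of the interleukin-20 family, was at 8.22, 9.28 and 9.32 untreated and at 6.82, 7.01 and 7.35 after decitabine, 3.68-fold lower. TNIP3 (79931) was at 6.82, 6.69 and 5.58 and then at 5.19, 4.97 and 3.95, so replicate 3 was lowest in both groups and the 3 differences stayed between -1.63 and -1.72. TNIP1 was the steadier of the pair in level, from 7.37 ± 0.27 to 6.09 ± 0.26 (SD, n = 3 per group). The untreated values spanned more than 1 log2 unit in 9 members, and 6 of these, IL1RL1, IL18R1, CXCL8, CXCL2, TNIP3 and IL20RB, belong to this inflammatory group.

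**Figure D2:**
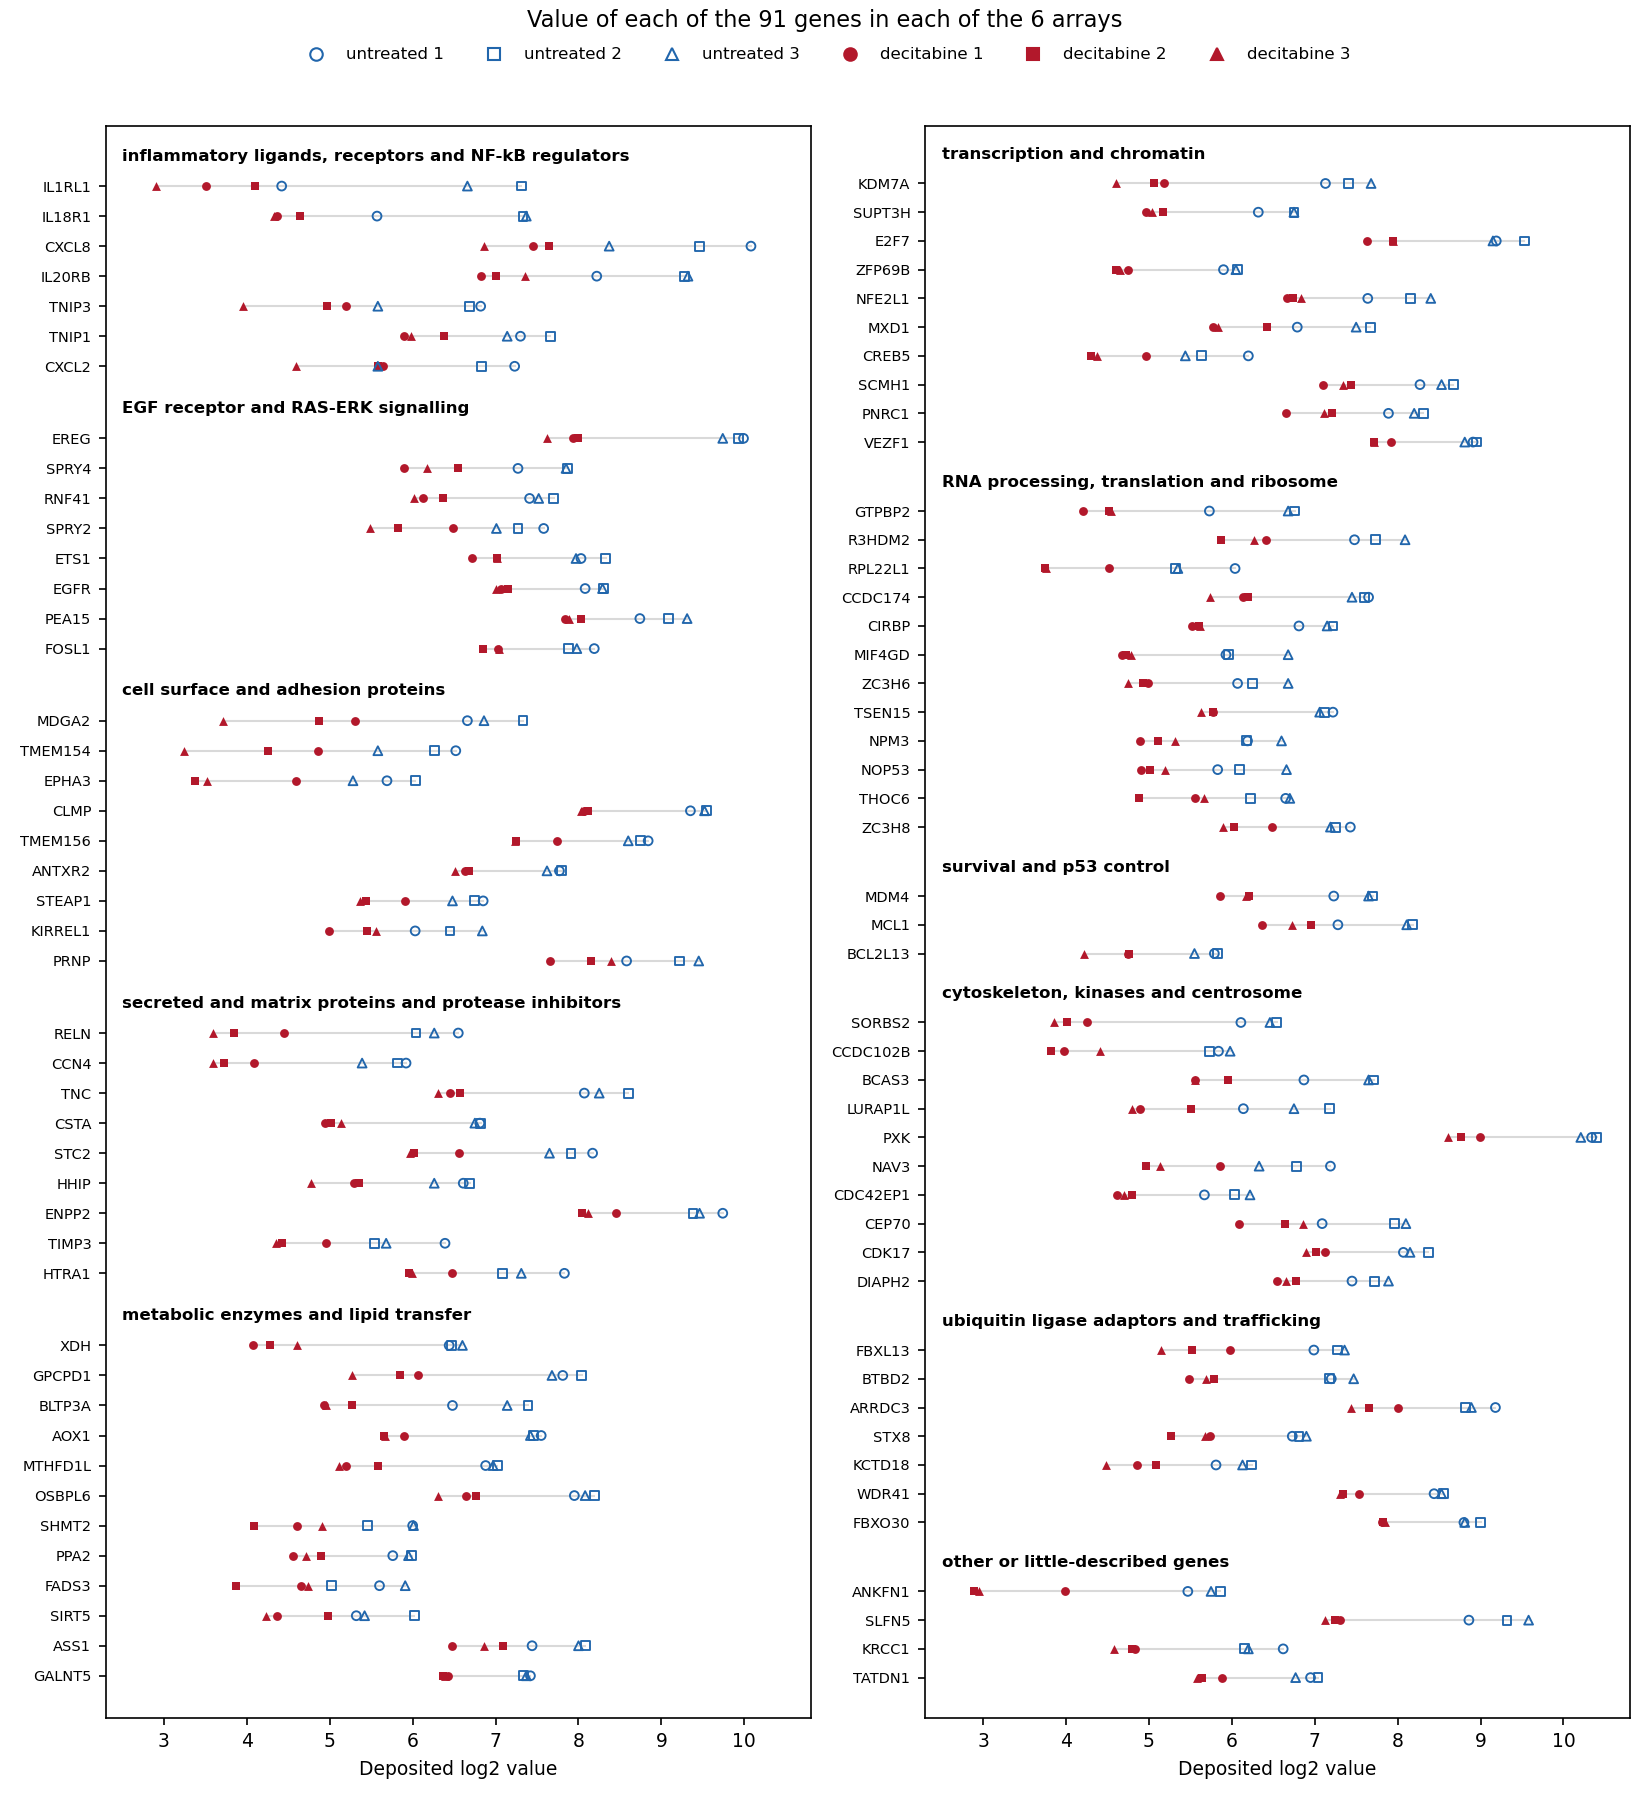
Deposited value, read as log2 (horizontal axis), of each of the 91 genes in each of the 6 arrays, grouped by role. Untreated arrays are open blue symbols and decitabine arrays filled red symbols, with 1 shape for each replicate number. The untreated value of IL1RL1 in replicate 1, 4.42, lies far under the 7.31 and 6.66 of the other untreated arrays, whereas the 3 untreated values of GALNT5 lie within 0.08 of each other.

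EGF receptor and RAS-ERK signalling contributed 8 members, with a median difference of -1.27. EREG (2069) encodes epiregulin, a ligand of the EGF receptor, and stood at 9.99, 9.93 and 9.74 untreated and at 7.93, 7.99 and 7.62 after decitabine. Both groups were tight and far apart, and the mean was 4.11-fold lower. EGFR (1956), the receptor itself, went from 8.08, 8.30 and 8.29 to 7.06, 7.15 and 7.01, a smaller difference of -1.15 with no overlap between groups. SPRY4 and SPRY2, feedback inhibitors of receptor tyrosine kinase signalling, showed differences of -1.46 and -1.35.

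Further down the same route, ETS1 and FOSL1 encode transcription factors that respond to ERK activity. ETS1 was lower in all 3 pairs, at -1.31, -1.31 and -0.95, and FOSL1, an AP-1 subunit, at -1.16, -1.03 and -0.94. PEA15, which holds ERK in the cytoplasm, was among the brightest members and went from 9.05 ± 0.29 to 7.92 ± 0.10 (SD, n = 3 per group). RNF41, a ubiquitin ligase for receptors of the EGF family, showed a difference of -1.38. These 8 genes were grouped by hand after they had been chosen. The other measured genes of the EGF family list did not pass the test without a replicate block, as given with the lists.

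At the cell surface, 9 further members had a median difference of -1.32. MDGA2, a membrane-anchored adhesion protein, was at 6.66, 7.33 and 6.86 untreated and at 5.30, 4.87 and 3.71 after decitabine. The decitabine arrays spread more widely than the untreated ones, and replicate 3 was lowest. TMEM154, a membrane protein of little-known function, went from 6.52, 6.26 and 5.58 to 4.86, 4.25 and 3.24, with replicate 3 lowest in both groups. EPHA3, an ephrin receptor tyrosine kinase, was at 5.69, 6.03 and 5.28 and then at 4.59, 3.38 and 3.52, so its difference was smallest in pair 1. CLMP, an adhesion molecule of cell junctions, was brighter and even, from 9.47 ± 0.10 to 8.07 ± 0.04 (SD, n = 3 per group). PRNP, the prion protein, differed least of the group, at -1.02, and TMEM156, ANTXR2, STEAP1 and KIRREL1 lay between -1.32 and -1.11.

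Secreted and matrix proteins made up 9 members, with a median difference of -1.73. RELN, the large extracellular glycoprotein reelin, was at 6.55, 6.04 and 6.26 untreated and at 4.45, 3.84 and 3.59 after decitabine, 5.00-fold lower. CCN4, a matricellular protein induced by Wnt signalling, went from 5.92, 5.82 and 5.39 to 4.09, 3.72 and 3.59. TNC, the matrix protein tenascin-C, stood at 8.07, 8.60 and 8.25 and then at 6.45, 6.57 and 6.30. The groups of all 3 genes were more than 1 log2 unit apart at their nearest values.

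CSTA, the cysteine protease inhibitor cystatin A, had nearly identical untreated values of 6.81, 6.82 and 6.75 and decitabine values of 4.94, 5.02 and 5.13. STC2, the secreted glycoprotein stanniocalcin-2, went from 7.91 ± 0.26 to 6.18 ± 0.33 (SD, n = 3 per group). ENPP2 encodes autotaxin, which makes lysophosphatidic acid, and its differences were -1.29, -1.34 and -1.35. HHIP, a hedgehog antagonist, HTRA1, a serine protease, and TIMP3, an inhibitor of metalloproteinases, lay between -1.38 and -1.27. A second feature named TIMP3 was dim, at 2.29 untreated, and its 3 differences of -1.02, -0.26 and 0.15 did not have a common direction.

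Metabolic enzymes and lipid transfer proteins gave 12 members, with a median difference of -1.40. XDH, the xanthine dehydrogenase that ends purine breakdown, was at 6.44, 6.47 and 6.60 untreated and at 4.07, 4.28 and 4.60 after decitabine. AOX1, an aldehyde oxidase of the same molybdenum enzyme family, went from 7.55, 7.46 and 7.42 to 5.89, 5.65 and 5.67. Both were even across arrays, and their means were 4.55-fold and 3.34-fold lower.

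MTHFD1L, which makes formate in mitochondria, was at 6.88, 7.02 and 6.97 untreated and at 5.19, 5.58 and 5.11 after decitabine. SHMT2, the mitochondrial serine hydroxymethyltransferase that feeds the same folate route, went from 5.82 ± 0.31 to 4.54 ± 0.41 (SD, n = 3 per group). The 2 enzymes differed by -1.66 and -1.29, with no overlap between groups. GPCPD1, which splits glycerophosphocholine, went from 7.84 ± 0.18 to 5.73 ± 0.41 (SD, n = 3 per group), and BLTP3A, a bridge-like lipid transfer protein, showed differences of -1.55, -2.12 and -2.19. OSBPL6, an oxysterol-binding protein homologue, showed a difference of -1.51. The remaining enzymes, PPA2, FADS3, SIRT5, ASS1 and GALNT5, lay between -1.18 and -0.98, and ASS1 makes argininosuccinate on the way to arginine.

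Transcription and chromatin proteins numbered 10, with a median difference of -1.31. KDM7A, a histone demethylase that removes repressive marks, stood apart from the other 9 at 7.13, 7.41 and 7.68 untreated and 5.18, 5.06 and 4.60 after decitabine. Its mean difference was -2.46, and pair 3 showed the largest, -3.08. E2F7, a repressor of the E2F family, went from 9.19, 9.53 and 9.15 to 7.63, 7.94 and 7.95. The other 8 lay between -1.55 and -1.11: SUPT3H, ZFP69B, NFE2L1, which drives proteasome genes, MXD1, a partner of MAX that opposes MYC, CREB5, the Polycomb protein SCMH1, PNRC1 and VEZF1. SCMH1 was the most even of them, at -1.17, -1.23 and -1.19.

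RNA processing, translation and ribosome genes gave 12 members, with a median difference of -1.45. GTPBP2, which acts in the rescue of stalled ribosomes, was at 5.73, 6.76 and 6.68 untreated and at 4.21, 4.52 and 4.54 after decitabine, the largest difference of the group. RPL22L1, a paralogue of a ribosomal protein, was near the level limit but even across pairs, at -1.52, -1.57 and -1.59. CIRBP, a cold-inducible RNA-binding protein, went from 6.81, 7.22 and 7.15 to 5.52, 5.61 and 5.62. Its second named feature was dim and differed the other way, from 3.37 to 3.92 with pair differences of 0.28, 0.40 and 0.97, so the membership of CIRBP rests on its brighter feature. The other 9 lay between -1.58 and -1.15: R3HDM2, CCDC174, MIF4GD, ZC3H6, TSEN15, a subunit of the transfer RNA splicing endonuclease, NPM3, NOP53, a ribosome assembly factor, THOC6, a subunit of an mRNA export complex, and ZC3H8.

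Cell survival and p53 control held 3 members. MDM4, an inhibitor of p53, was at 7.23, 7.70 and 7.65 untreated and at 5.86, 6.21 and 6.17 after decitabine, and its pair differences of -1.37, -1.49 and -1.48 were close together. MCL1, an anti-apoptotic protein of the BCL2 family, was lower by less, from 7.86 ± 0.50 to 6.69 ± 0.30 (SD, n = 3 per group), with the untreated value of replicate 1 the lowest of its group. BCL2L13, a mitochondrial relative, showed a difference of -1.15.

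Cytoskeletal, kinase and centrosome proteins numbered 10, with a median difference of -1.49. SORBS2, an adaptor of the actin cytoskeleton, was at 6.11, 6.54 and 6.46 untreated and at 4.25, 4.01 and 3.85 after decitabine, 5.04-fold lower. PXK, a PX domain protein with a kinase-like region, was the brightest of all 91, at 10.34, 10.40 and 10.21 and then 8.99, 8.77 and 8.61. CCDC102B, a centrosomal linker protein, showed differences of -1.86, -1.91 and -1.57. The other 7, BCAS3, LURAP1L, NAV3, CDC42EP1, CEP70, CDK17 and the formin DIAPH2, lay between -1.72 and -1.03.

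Ubiquitin ligase adaptors and trafficking proteins gave 7 members, with a median difference of -1.25. FBXL13, an F-box protein, differed more from pair to pair than the others, at -1.01, -1.76 and -2.21. ARRDC3, an arrestin-like adaptor of receptor trafficking, was the brightest, from 8.96 ± 0.19 to 7.70 ± 0.28 (SD, n = 3 per group). BTBD2, the syntaxin STX8, KCTD18, WDR41 and FBXO30 lay between -1.63 and -1.04. Of the 4 remaining genes, SLFN5, a Schlafen family protein, was at 8.86, 9.32 and 9.58 untreated and at 7.30, 7.24 and 7.12 after decitabine. ANKFN1 was at 5.47, 5.86 and 5.75 and then at 3.99, 2.89 and 2.95, with decitabine replicates 2 and 3 well under replicate 1. KRCC1 and TATDN1 showed differences of -1.59 and -1.22.

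Because the same 3 pairs chose the genes, the rule, with the same genes left out by name, was also applied to 2 pairs at a time, and the pair that was not used was then read. The 171 genes chosen in pairs 2 and 3 had a median difference of -0.93 in pair 1, where the median over 3693 well-expressed genes was 0.08. All 171 were below 0 in pair 1, against 42.6% of the well-expressed genes, and 94 of them (55.0%) were at or below -0.9, against 3.76%. The size was smaller than the -1.28 seen in the pairs that chose them.

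The 103 genes chosen in pairs 1 and 3 had a median of -1.35 in pair 2, all 103 below 0 and 92 of them (89.3%) at or below -0.9. Over the 3689 well-expressed genes of that choice the median was -0.01 and 5.75% reached -0.9. The 106 genes chosen in pairs 1 and 2 had a median of -1.43 in pair 3, with 105 below 0 and 92 (86.8%) at or below -0.9, beside a median of -0.09 and a share of 7.10% among 3633 well-expressed genes. The exception was SNAR-I, a small noncoding RNA gene and no member, at 0.59 in pair 3. Members reach the limit in every pair by the rule, so their presence in these choices is not informative. A shared handling of all untreated or all decitabine samples would be present in every pair and was not tested.

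**Figure D3:**
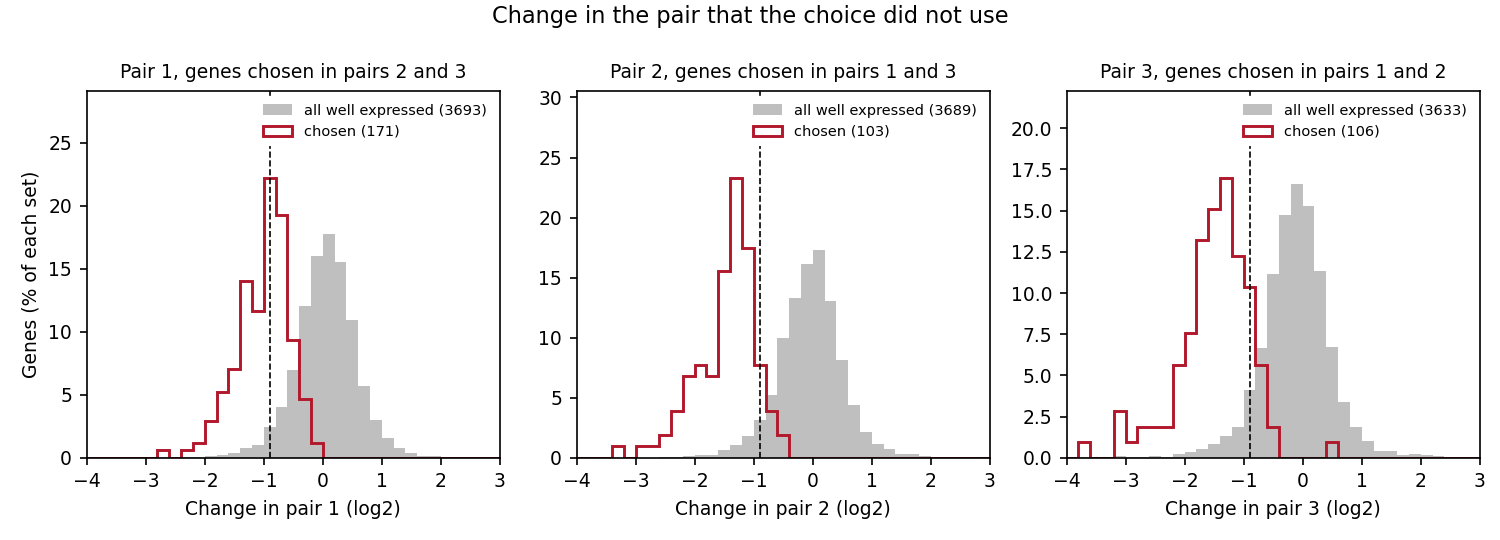
Difference between decitabine and untreated (log2) in the pair not used for the choice, for genes chosen in the other 2 pairs (red outline) and for all well-expressed genes (grey), as a percentage of each set, with the limit of -0.9 as a dashed line. Medians of the chosen genes are -0.93, -1.35 and -1.43, and those of the well-expressed genes 0.08, -0.01 and -0.09.

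Several members are neighbours in the genome. In the RefSeq gene order, 3 pairs of members had no other protein-coding gene between them: IL1RL1 and IL18R1 on chromosome 2, ZC3H8 and ZC3H6 on chromosome 2, and E2F7 and NAV3 on chromosome 12. KCTD18 and AOX1 were separated by 1 gene, CXCL2 and EREG by 2, SHMT2 and R3HDM2 by 2, and CXCL8 and CXCL2 by 7. Around IL1RL1 and IL18R1, none of the 5 other measured neighbours passed limma's test, and their differences ran from -0.33 to 0.26. Among them IL18RAP, the second chain of the interleukin-18 receptor, was near the bottom of the array at 1.69 untreated and 1.52 after decitabine.

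Around CXCL8, CXCL2 and EREG, 9 other protein-coding genes were measured and a single one passed the test. CXCL5, a neutrophil chemokine that lies between CXCL8 and CXCL2, was at 2.88, 2.20 and 3.14 untreated and at 6.85, 6.63 and 6.13 after decitabine. It rose by 3.80 (SE 0.31, limma adjusted p = 0.00112), opposite in direction to CXCL8 and CXCL2, and it was named here after its values were seen. EPGN, the EGF family ligand next to EREG, was at 5.86, 6.02 and 6.03 and then at 5.25, 4.88 and 4.09. Its difference of -1.23 missed the threshold (limma adjusted p = 0.0820) and passed with the replicate block (adjusted p = 0.0304). Around E2F7 and NAV3, and around ZC3H8 and ZC3H6, none of the 6 and 7 other measured genes passed without a block. With it, BBS10 near E2F7, at -0.55, and MERTK near ZC3H8, at 1.27, passed (limma adjusted p = 0.0383 and 0.0198).

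**Figure D4:**
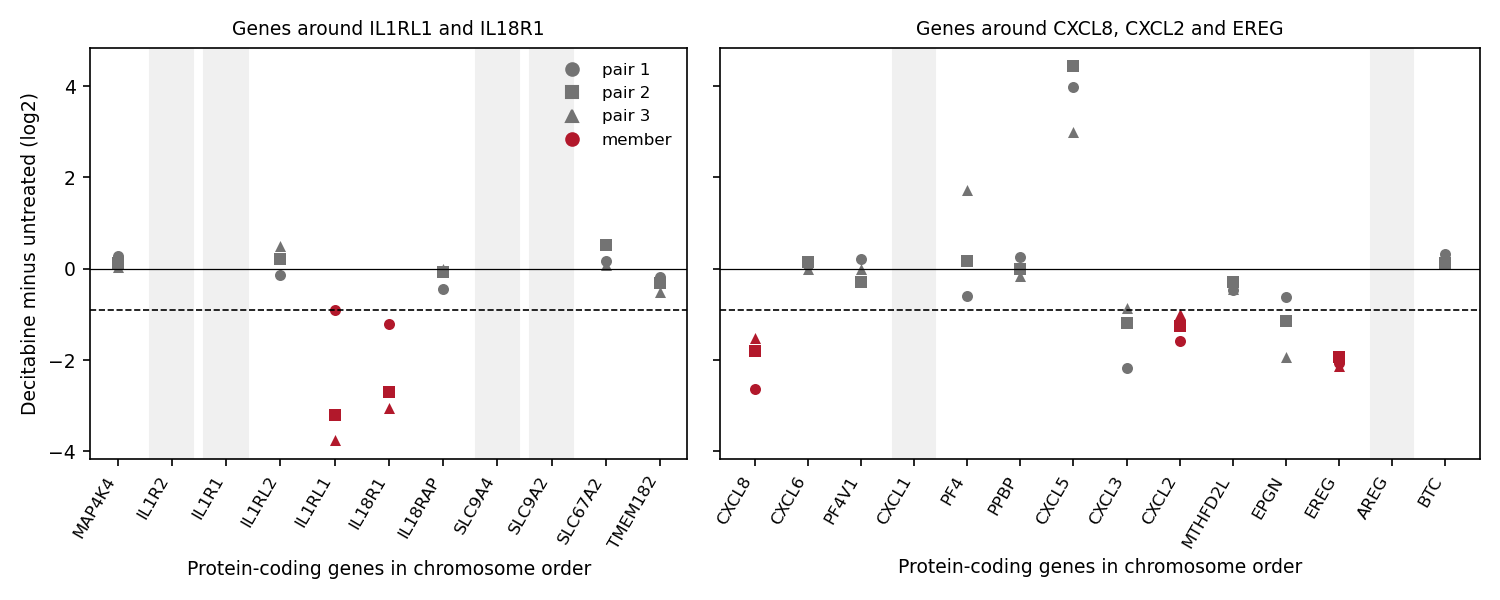
Difference between decitabine and untreated (log2) for protein-coding genes in RefSeq order around IL1RL1 and IL18R1 and around CXCL8, CXCL2 and EREG, with a symbol for each pair, members in red, the limit of -0.9 as a dashed line and shaded places for genes not analysed here. CXCL5, with 3.97, 4.43 and 2.99, lies above 0 between members that lie below it.

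Promoters were read for the 74 members found in the RefSeq promoter table, which gave 115 windows of 300 bases. The ratio of CpG dinucleotides to the number that base composition predicts was at least 0.6 in 65.2% of the members' windows, in 83.6% of 4450 windows of other well-expressed genes and in 48.9% of all 35116 windows. The median ratio was 0.76 for members, 0.85 for other well-expressed genes and 0.58 for all. Members thus lay above promoters in general and below those of other well-expressed genes. In 13 of the 74 members (17.6%) every window was under 0.6, against 5.83% of other well-expressed genes and 48.1% of all: ANKFN1, CREB5, CXCL8, EREG, IL1RL1, IL20RB, LURAP1L, NAV3, SORBS2, TMEM154, TMEM156, TNIP3 and XDH. The printed window of IL1RL1 held 1 CpG, that of CXCL8 held 4, and that of MTHFD1L held 41.

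The 8 motifs searched on both strands were spread unevenly. The GC box was in 54 of the 74 members, and each of the others in at most 13. The ATF4 and C/EBP composite letters TGATGNAA were in 8.70% of members' windows, 2.13% of those of other well-expressed genes and 3.62% of all, and belonged to CREB5, IL20RB, MDGA2, MTHFD1L, SORBS2, TMEM154 and TNIP3. The NF-kB letters GGNNTTTCC were in 7.83%, 7.21% and 6.26% of the 3 sets, in the members ANKFN1, ANTXR2, CXCL2, CXCL8, GTPBP2, IL18R1, TNIP1 and TNIP3. TATAAA was in 11.3%, 6.29% and 11.5%, and the AP-1 letters TGANTCA in 6.96%, 4.74% and 7.71%. The full cyclic AMP response element TGACGTCA was in 0.870%, 3.10% and 1.85%, the ETS letters CCGGAAGT in 2.61%, 9.17% and 4.14%, the E-box CACGTG in 6.96%, 9.96% and 7.26%, and the GC box GGGCGG in 58.3%, 68.6% and 45.0%. Several windows can belong to 1 gene, and overlapping windows, such as those of MTHFD1L, can count 1 site more than once. No test was made of these shares.

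**Figure D5:**
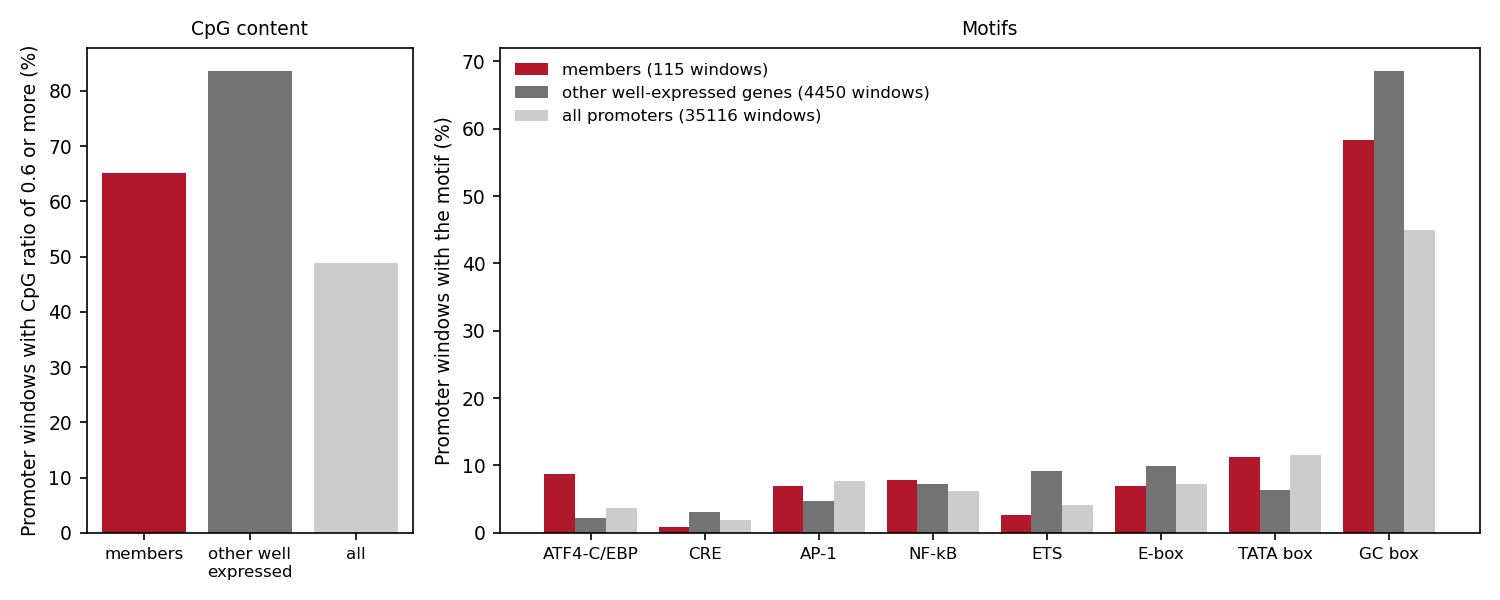
Share of promoter windows with a CpG ratio of at least 0.6 (left, percent) and share with each of the 8 motifs (right, percent; CRE is the cyclic AMP response element), for members, other well-expressed genes and all promoters of the RefSeq table. Windows with a ratio of at least 0.6 make up 65.2%, 83.6% and 48.9% of the 3 sets.

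Other genes of the pathways of some members, and of further pathways, were taken from 18 lists, of which 17 had a measured gene and amino acid transporters were not analysed here. Of the 17, 6 held a member and 11 held none. The lists held 206 measured genes, of which 9 were members and 197 were not. Among the 197, limma's test called 4 lower and 8 higher (2.03% and 4.06%, beside 1.02% and 2.01% of all genes) and left 185 uncalled. With the replicate block it called 19 lower and 21 higher, where 5.37% of all genes were called lower and 1159 of 14884 higher. The median difference of the 197 was -0.04, beside -0.02 over all genes. The transfer RNA synthetase gene CARS1, 1 of the 4 called lower, met both limits of the rule and was left out by name. The 6 lists that hold a member had 76 other genes, of which 3 were called lower, 2 higher and 71 neither, with a median difference of -0.10, and with the block 13 were called lower and 7 higher.

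The lists of folate and stress genes had the lowest medians, with or without their members, which the rule chose for lower values. Mitochondrial one-carbon and proline synthesis held the members SHMT2 and MTHFD1L among 9 measured genes with a median of -0.68. Without these members the median was -0.443. Of the other 7, PCK2, the mitochondrial enzyme that makes phosphoenolpyruvate, fell by 1.81 (SE 0.25, limma adjusted p = 0.00987; 0.0590 without decitabine replicate 2), and GLDC, the glycine decarboxylase, rose by 2.16 (SE 0.21, adjusted p = 0.00233). Other integrated stress response genes held STC2 and ARRDC3 among 16 with a median of -0.71, and of -0.445 without these members. Of the other 14, CARS1, a cysteinyl transfer RNA synthetase, fell by 1.27 (limma adjusted p = 0.0334) and EIF4EBP1, an inhibitor of translation initiation, fell by 1.15 (adjusted p = 0.0419). CARS1 met both limits of the rule and was left out of the members by name. Leaving out any single array other than untreated replicate 1 lost the call of CARS1, and leaving out any of the 6 lost that of EIF4EBP1. Median centring lost both (limma adjusted p = 0.142 and 0.149). With the replicate block, 3 of the 7 one-carbon genes were called lower and 1 higher. Of the 14 stress genes the block called 5 lower and 2 higher, where 5.37% of all genes were called lower and 1159 of 14884 higher.

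Elsewhere 1 or 2 genes of a list passed without a replicate block. In autophagy and lysosome 1 of 23 fell, TFE3, a transcription factor of lysosomal genes, by 1.20 (limma adjusted p = 0.0295). In TGF-beta and SMAD signalling 2 of 12 rose, BMP4 by 3.07 (adjusted p = 0.00421) and the inhibitor SMAD6 by 1.70 (limma adjusted p = 0.0158). Among glucocorticoid-responsive genes 2 of 12 rose, CRISPLD2 by 2.26 (limma adjusted p = 0.00679) and the kinase SGK1 by 1.33 (adjusted p = 0.0158), and SGK1 was also the 1 of 12 that rose in insulin, PI3K and FOXO signalling. In integrins and focal adhesion, where TNC is a member, 1 of the 6 others rose, VCL (vinculin), by 1.59 (limma adjusted p = 0.0356). In nonsense-mediated decay 1 of 6 rose, EIF4A3, by 1.22 (limma adjusted p = 0.0292), and among cyclins D and CDK inhibitors 1 of 9 rose, RBL1, by 1.25 (adjusted p = 0.0389). Apart from GLDC, BMP4 and CRISPLD2, each of these 12 calls was lost when at least 1 array was left out, and over the alternatives that lost a call the limma adjusted p ran from 0.0511 to 0.174. With the block, 2 of the 23 autophagy genes and 3 of the 12 glucocorticoid-responsive genes were called higher. In the insulin list the block also called 1 lower, where 5.37% of all genes were called lower and 1159 of 14884 higher.

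No gene outside the members passed limma's test in the remaining 8 lists. These were immediate early and AP-1 genes (18 besides FOSL1), EGF family ligands and receptor tyrosine kinases (20 besides EREG and EGFR), ubiquitin ligase adaptors and the N-end rule pathway (12 besides MDM4), interleukins and inflammatory mediators (10), endoplasmic reticulum stress and folding (10), NRF2 targets and glutathione (10), circadian clock genes (11) and glycolysis and glucose transport (9). Of these 100 genes, 8 were lower and 10 higher at an unadjusted p under 0.05. The share of all genes at that limit is not given here, so nothing is read from these counts. With the replicate block 9 of the 100 were called lower and 9 higher, where 5.37% of all genes were called lower and 1159 of 14884 higher. The medians of the 8 lists, members included, lay between -0.19 and 0.22. FOSL1, EREG, EGFR and MDM4 were thus members from lists whose other genes did not pass without a block. With it, 3 others were called lower and 2 higher in the EGF family list. In the AP-1 list 2 were called lower, and in the ubiquitin ligase list 1 was called higher.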

How the data were processed

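The authors deposited 1 table of log2 expression values for 48226 array features in 6 samples, made in the Transcriptome Analysis Console, as the submitters' processing notes say. Its version, the normalization, any filters, the log base and the build were not given in the sources used here. Values ran from 0.17 to 12.89 and were read as log2, so folds rest on that reading. A level on 1 probe does not rank RNA amounts against another probe. Platform annotation named 16098 features with a single symbol, updated through RefSeq (GRCh38.p14), which gave 14884 genes, and the feature with the highest mean stood for its gene. The other 32128 features had no single gene symbol here.

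Groups came from the treatment labels and replicate numbers from the titles. limma 3.58.1 (lmFit, eBayes) in R 4.3.3 compared decitabine with untreated over all 14884 genes and 6 arrays, with no covariate, two-sided, adjusted by Benjamini-Hochberg. The fit was also run on simulated arrays drawn independently, without any effect of the replicate number, and nothing is read from that run. The labels name no separate cultures, so the p-values cover no more than the spread of these samples, possibly a technical one, and the number of arrays limits precision. The shared numbers in the titles were treated as pairs after a check of deviations from group means. These correlated at 0.682, 0.595 and 0.558 between same-numbered arrays and at -0.006 to -0.483 otherwise. Deviations sum to 0 within a group, so positive values for same-numbered arrays bring negative ones elsewhere. The negative values are therefore no separate evidence of pairing.

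Members and lists were chosen with earlier results of these data known. Named are the 20 members with the largest mean difference, the 10 brightest, those with the widest and narrowest pair differences, those in a list or with several features, those beside a limit, up to 3 other genes a list past the threshold, and further members by role, a grouping made by hand. Promoters are RefSeq's, with 74 of 91 members found. Alternatives were a replicate block, quantile and median scaling, a filter on dim genes, an intensity trend, other limits and left-out arrays.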

Additional observations from a re-analysis of the deposited data

How the results depend on the processing

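The 91 genes met the rule on the deposited values. The number was 171 without replicate 1 and 103 and 106 without replicates 2 and 3, and since members reach the limit in each pair these counts say nothing of their stability. Quantile scaling gave 112 genes by the rule, all 91 members among them, and median centring 85, of which 83 were members, so that 8 members were lost. Members called lower went from 71 to 86 and 48 under these scalings. The members' median difference was -1.42 and -1.39, with no change of sign, and 2 members, GALNT5 and RPL22L1, moved by more than their spread between replicates under quantile scaling. The replicate block, which follows the pairing of the numbers, raised genes called lower from 152 to 800 and higher from 299 to 1159, and pathway genes called lower from 4 to 19 and higher from 8 to 21. Quantile scaling gave 387, 551, 10 and 13 for these 4 counts, leaving out the dimmer 50% of genes 432, 557, 10 and 14, and an intensity trend 468, 694, 12 and 15. Median centring gave 91 lower overall and 1 lower among pathway genes. Leaving out single arrays gave 33 to 156 lower, 95 to 321 higher, 16 to 69 members called, and 0 to 4 lower and 3 to 8 higher pathway genes. The lowest counts came without replicate 2 of either group, and removing any array other than untreated replicate 1 moved the overall counts by over 1.5 times. Without both arrays of replicate 1, an alternative added after the data were seen, 143 genes were lower, 245 higher and 65 members called, with 3 lower and 5 higher pathway genes. The share of members' promoters with a CpG ratio of at least 0.6 lay 16.3 points above that of all promoters and reversed to -18.4 against other well-expressed genes. No measure of background was used, which limits values near the bottom of the array.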

Other observations

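Of 32128 features without a single gene symbol here, 3133 had an untreated mean of at least 5.5. Of these, 121 (3.86%) were lower by 0.9 or more in each pair, beside 3.29% of well-expressed named genes before any were left out by name. The 121 are described next. Their mean differences ran from -3.67 to -0.93 on the log2 scale, with a median of -1.65. A further 29 named genes below the level of 5.5, counted after the same names were left out, met the limit on the difference in each pair.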
